A study of Homo sapiens with 8 samples.

Results

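The SLC39 genes encode the ZIP proteins, membrane transporters that bring zinc into the cytosol from outside the cell or out of organelles. The 10 genes described here, SLC39A1, SLC39A3, SLC39A4, SLC39A6, SLC39A7, SLC39A8, SLC39A9, SLC39A10, SLC39A13 and SLC39A14, were found through GEO's platform annotation as probe sets assigned to one of these symbols alone. They had 26 of the 54675 probe sets on the array. All 10 had at least 1 probe set above the filter on dim signal, and 17 of the 26 probe sets passed it. The genes are therefore 10 of 14726 tested. The family was selected on the measured difference between small and large cells on these same arrays, SLC39A10 being known as one of the most lowered genes. Its values are accordingly a description and not a test of the family.

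H1, a long-used line of human embryonic stem cells, was grown over irradiated mouse embryonic fibroblasts (MEF). Flow sorting on forward scatter and side scatter, signals that vary with cell size and granularity, gave a large and a small fraction. Each fraction was collected in 4 biological sorts, and each sort was measured on its own Affymetrix U133 Plus 2.0 array. The labels name no treatment and no change of genotype, and both groups shared the line, the feeders and the sorting procedure. H1 is a single line, so the 4 sorts do not sample different donors.

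Zinc enters the cytosol through ZIP proteins and leaves it through the SLC30 (ZnT) exporters, while metallothioneins bind it there. Free zinc activates the transcription factor MTF1, which binds metal response elements in the promoters of metallothionein genes and of the exporter SLC30A1. The LIV-1 subfamily of ZIPs, named after the older name of SLC39A6, holds 7 of the 10 genes: SLC39A4, SLC39A6, SLC39A7, SLC39A8, SLC39A10, SLC39A13 and SLC39A14. SLC39A1 and SLC39A3 belong to the ZIPII subfamily and SLC39A9 to ZIPI.

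Because MTF1 acts through metal response elements, the core of that element was searched in RefSeq promoters of build GRCh38.p14, each spanning 300 bases around an annotated transcription start. The letters searched were TGCACNC and TGCGCNC, on both strands, and the patterns cannot overlap at the same position. Promoters were found for 8 of the 10 genes, 14 promoters in all. Of these, 6 held a match, or 42.9%, beside 10377 of 35116 promoters (29.6%) in the whole table. The share was 6 of 12 (50.0%) for zinc exporters and 5 of 6 (83.3%) for metallothioneins with MTF1. These sets hold few promoters and the shares were not tested against each other. The following windows, read 5′ to 3′ on the strand of the gene, show the match in capitals in 2 importers that were lower in small cells, in the exporter SLC30A1, which had 2 matches, and in the metallothionein MT2A, which had 8. SLC30A1 and MT2A serve as known MTF1 targets, were picked for that role and are shown by the match nearest before the start.
SLC39A10, chr2:195657249-195657275, + strand: ggagaggagaTGCACACggcactcgag
SLC39A6, chr18:36129341-36129367, - strand: cccgcggcgcTGCGCGCggcggtaatt
SLC30A1, chr1:211579194-211579220, - strand: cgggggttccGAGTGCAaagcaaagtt
MT2A, chr16:56608566-56608592, + strand: cttgccgcgcTGCACTCcaccacgcct
The SLC39A10 match began 33 bases past the start of 1 of its 2 annotated promoters, and the SLC39A6 match 17 bases before its start. The SLC30A1 window shows the pattern on the opposite strand, 49 bases before the start. A match is a run of letters and does not show that MTF1 binds there. The other matches among the 10 genes lay in promoters of SLC39A1, SLC39A3, SLC39A8 and SLC39A13. None of those genes passed the test of small against large cells reported below. No match to these letters lay in the single SLC39A7 promoter or in the 2 SLC39A9 promoters. SLC39A4 and SLC39A14 had no promoter among those searched.

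The deposited values were linear intensities that were not on a common scale, with 75th percentiles from 41.9 to 106 over the arrays, and the arrays were quantile normalized on the log2 scale. Levels below are normalized log2 intensities relative to the RNA measured, so in these bulk sorts fewer cells of a type and less RNA per cell cannot be told apart. Of the 12 stem cell markers checked, 10 were tested, and none of them fell below 9.42 on any array, where probe sets entered the test above a mean of 3.62. POU5F1 and TDGF1 had no tested probe set of their own, and 1 of the 10, PODXL, was called, lower in small cells. The summed linear level of the 7 tested fibroblast markers ran from 1040 to 1980 in small and from 1350 to 2720 in large cells, and 0 of the 7 passed the test (0 also at an unadjusted p under 0.05). In both groups COL3A1, LUM and DCN were higher on arrays 1 and 2 than on arrays 3 and 4. COL1A1, COL1A2, THY1 and POSTN did not have that order in both groups. No tested neural, mesoderm, endoderm or trophoblast marker passed the test, and MIXL1, FOXA2, CDX2 and CGA were not tested. Of the tested mesoderm and endoderm markers 4 of 6 lay above 0 (median 0.30). Below 0 lay 9 of the 10 stem cell markers (median -0.10) and all 3 tested trophoblast markers, beside 44% of all genes. All 6 neural markers lay above 0, with a median of 0.39 and 3 at an unadjusted p under 0.05. Of all 14726 genes, 2431 had an unadjusted p under 0.05. The neural transcription factor gene PAX6 was 3.4-fold higher in small cells (1.77 ± 0.52 SE, limma adjusted p = 0.106), a larger difference in size than that of any SLC39 gene. Its small arrays lay between 5.13 and 5.87, large array 1 at 5.63 and the other large arrays between 2.74 and 3.24. STMN2 was 2.22-fold higher (1.15 ± 0.48 SE, limma adjusted p = 0.247) and DCX 1.48-fold higher (0.57 ± 0.26 SE, limma adjusted p = 0.301), both with groups that overlapped. The summed linear level of the 6 neural markers ran from 1590 to 3240 in small and from 1660 to 3100 in large cells. Most of that sum was TUBB3, with means of 10.81 in small and 10.62 in large cells, and NES, at 8.77 and 8.56. PAX6, STMN2 and DCX, with group means of at most 5.57, hardly enter the sum, so it cannot show their change. The part of such cells in the SLC39 differences was not tested. The difference between the 3 prime and 5 prime control probe sets of GAPDH and ACTB, which grows as RNA degrades, averaged 2.36 ± 0.30 (SD, n = 4) on the small arrays and 2.12 ± 0.53 (SD, n = 4) on the large ones on the log2 scale (exact two-sided permutation p = 0.4). Large array 1 had the highest value, 2.91, and the other large arrays lay between 1.83 and 1.89, below all 4 small arrays.

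Small and large cells were compared to ask which transcripts distinguish the fractions. Of the 10 SLC39 genes, 4 were lower in small cells at an adjusted p under 0.05 in limma's fit over all 14726 genes and 0 were higher, where 1.69% of all genes were called lower and 0.299% higher. That is 249 genes lower and 44 higher, and with scaling to the 75th percentile the split was 148 lower and 67 higher. The 4 were SLC39A10, SLC39A7, SLC39A14 and SLC39A6, which are all of the LIV-1 subfamily, with differences from -1.48 to -0.85 on the log2 scale. The other 3 LIV-1 genes ranged from -0.16 to 0.20. Of the 10 genes, 7 had a difference below 0, beside 44% of all genes. The median over the 10 was -0.53, beside 0.05 over all genes. Since this same contrast drew attention to the family, nothing is read from these counts.

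**Figure D1:**
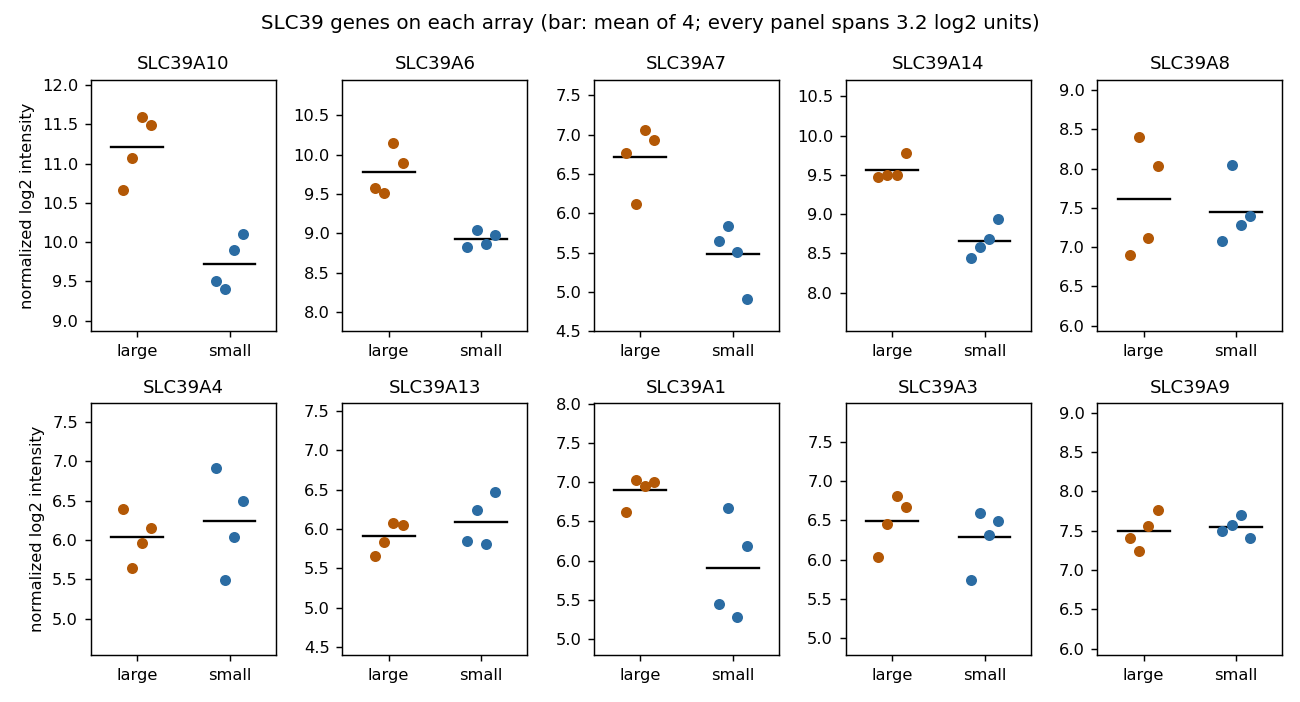
Normalized log2 intensity (vertical axis) of the 10 SLC39 genes on the 4 large and 4 small arrays; each point is an array, in the order of the sort numbers, each bar the mean of 4, and all panels span the same number of log2 units. The large and small points are apart for SLC39A10, SLC39A6, SLC39A7 and SLC39A14 and overlap for the other 6 genes.

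SLC39A10, at chr2:195613029-195737700 in GRCh38.p14, encodes ZIP10, a plasma membrane zinc importer that can pair with ZIP6. On large arrays 1 to 4 its level was 10.67, 11.06, 11.60 and 11.49, and on small arrays 1 to 4 it was 9.50, 9.40, 9.90 and 10.10. The lowest large array, number 1, lay 0.57 above the highest small array, number 4, so the groups did not overlap. The difference was -1.48 ± 0.21 (SE, n = 4 per group), which is 2.79-fold lower in small cells and the 18th most negative of all genes. As deposited, before normalization, the intensities ran from 496 to 1650 in small and from 997 to 4330 in large cells and did overlap. SLC39A10 had a single probe set, so no other probe set of the gene could be set beside it.

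SLC39A6, at chr18:36108531-36129340, encodes ZIP6, the LIV-1 protein itself, an importer at the plasma membrane known from breast cancer cells and from epithelial-mesenchymal transition. Its level was 9.57, 9.51, 10.15 and 9.89 on large arrays 1 to 4 and 8.83, 9.04, 8.86 and 8.98 on small arrays 1 to 4. The small arrays lay within 0.21 of each other and below every large array. The difference was -0.85 ± 0.16 (SE), or 1.81-fold. This gene had 4 tested probe sets, and all of them were lower in small cells. A further probe set gave -0.75 ± 0.17 (SE) with groups that did not overlap. The other two gave -1.23 ± 0.58 and -1.37 ± 0.56 with groups that did overlap and with SDs of up to 1.35 within a group.

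SLC39A7, at chr6:33200867-33204437, encodes ZIP7, which releases zinc from the endoplasmic reticulum and Golgi apparatus and is switched on by phosphorylation through the kinase CK2. Large arrays 1 to 4 gave 6.77, 6.12, 7.06 and 6.94 and small arrays 1 to 4 gave 5.65, 5.84, 5.51 and 4.91. Large array 2 was the lowest of its group and still 0.28 above the highest small array. The difference was -1.24 ± 0.26 (SE), or 2.37-fold lower in small cells. The only probe set of SLC39A7 ends in _s_at, a suffix for probe sets that can bind several transcripts. The call was lost in 5 of 8 fits that left out 1 array, with large array 3 or 4 or small array 1, 2 or 4 absent, where the difference lay between -1.38 and -1.06.

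SLC39A14, at chr8:22367278-22434129, encodes ZIP14, which carries iron and manganese as well as zinc. Its level was 9.47, 9.50, 9.50 and 9.77 on large arrays 1 to 4 and 8.44, 8.58, 8.69 and 8.94 on small arrays 1 to 4. The groups lay 0.54 apart, and the large arrays were within 0.30 of each other. The difference was -0.90 ± 0.15 (SE), or 1.86-fold. A dimmer tested probe set of the gene differed by -0.06 ± 0.43 (SE), and another, below the filter, was higher in small cells at 3.85 ± 0.51 (SD, n = 4) against 2.72 ± 0.87 (SD, n = 4). With the mean of the 2 tested probe sets the difference was -0.48 and the gene was no longer called.

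**Figure D2:**
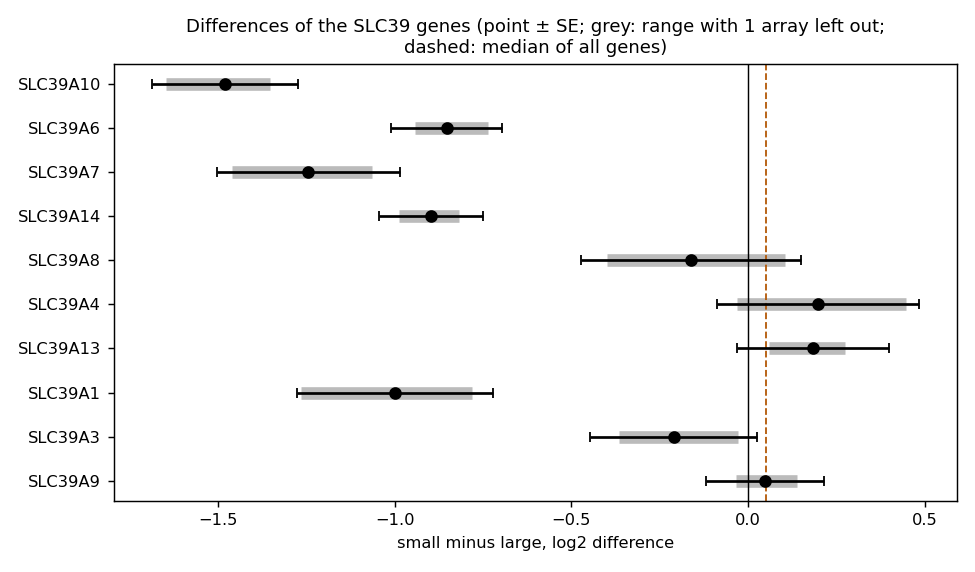
Difference between small and large cells on the log2 scale (horizontal axis) for each SLC39 gene; points with bars are the limma estimate ± SE, grey bars the range when 1 of the 8 arrays is left out, and the dashed line is the median of all genes, 0.05. SLC39A10 lies lowest at -1.48, and SLC39A8, SLC39A4 and SLC39A9 have grey bars that cross 0.

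SLC39A1 encodes ZIP1, a widely expressed importer of the plasma membrane. Large arrays 1 to 4 gave 6.62, 7.03, 6.95 and 7.01 and small arrays 1 to 4 gave 5.46, 6.67, 5.29 and 6.19. Small array 2 lay 0.05 above large array 1, so the groups overlapped by that array alone. The difference was -1.0 ± 0.28 (SE), larger in size than those of SLC39A6 and SLC39A14, but the small arrays spanned 1.38 and the gene was not called. It was called without small array 2, where the difference was -1.26. SLC39A3, for the related importer ZIP3, differed by -0.21 ± 0.24 (SE), its small arrays running from 5.74 to 6.59 and its large arrays from 6.04 to 6.81.

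SLC39A8 encodes ZIP8, a close relative of ZIP14, which carries manganese and cadmium as well as zinc. It ran from 7.08 to 8.04 in small and from 6.90 to 8.40 in large cells, and large arrays 2 and 4 were above large arrays 1 and 3 by more than 0.9. The difference was -0.16 ± 0.31 (SE), and the 2 other tested probe sets gave -0.33 ± 0.31 and -0.59 ± 0.49 (SE). SLC39A4, for ZIP4, the intestinal zinc importer lost in acrodermatitis enteropathica, had values of 5.49 to 6.92 in small and 5.65 to 6.40 in large cells, with a difference of 0.20 ± 0.29 (SE). SLC39A13, for ZIP13, an intracellular transporter that matters in connective tissue, differed by 0.18 ± 0.22 (SE) on 1 probe set and by 0.08 ± 0.20 (SE) on the other tested one. SLC39A9, for ZIP9 of the Golgi apparatus, differed by 0.05 ± 0.17 (SE). None of these 4 genes, nor SLC39A3, was called in any setting in which it was tested.

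**Figure D3:**
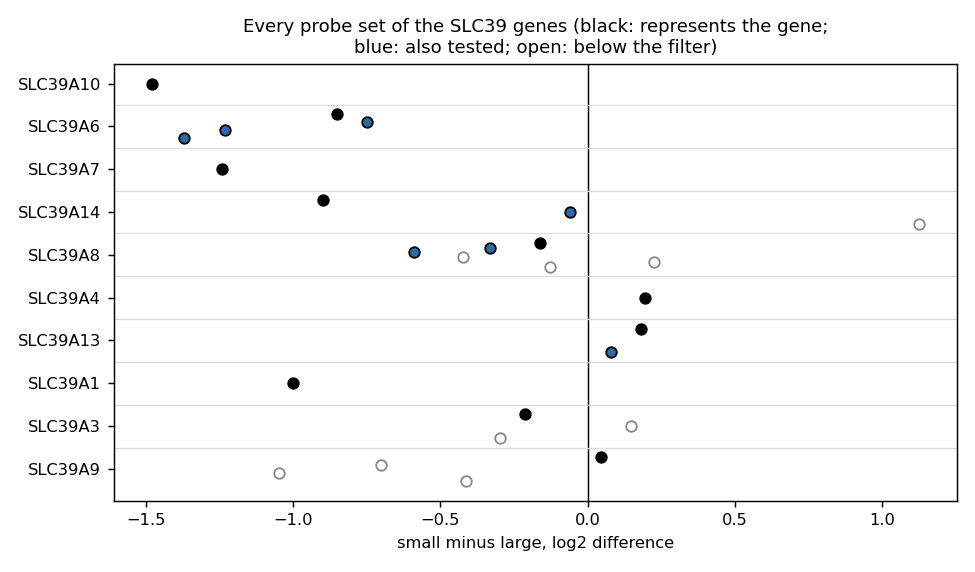
Difference between small and large cells on the log2 scale (horizontal axis) for all 26 probe sets of the SLC39 genes; black points represent the gene, blue points are further tested probe sets and open points were below the filter. All 4 SLC39A6 probe sets lie below 0, whereas those of SLC39A14 run from -0.90 to 1.13.

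Over the 17 tested probe sets, 13 were lower in small cells, 5 of them called in the fit over all 32768 tested probe sets, and 0 were called higher, where 1.3% of all probe sets were called lower and 0.198% higher. The 5 were 2 probe sets of SLC39A6 and 1 each of SLC39A7, SLC39A10 and SLC39A14. On these same 5 the groups did not overlap. At the level of genes, 4 of 10 lay lower in small cells without overlap, beside 5.07% of all genes, and 0 of 10 higher, beside 4.94%. On the deposited scaling 0 of the 10 were free of overlap, with median centring 1, SLC39A7, and with scaling to the 75th percentile the same 4 genes as after quantile normalization.

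**Figure D4:**
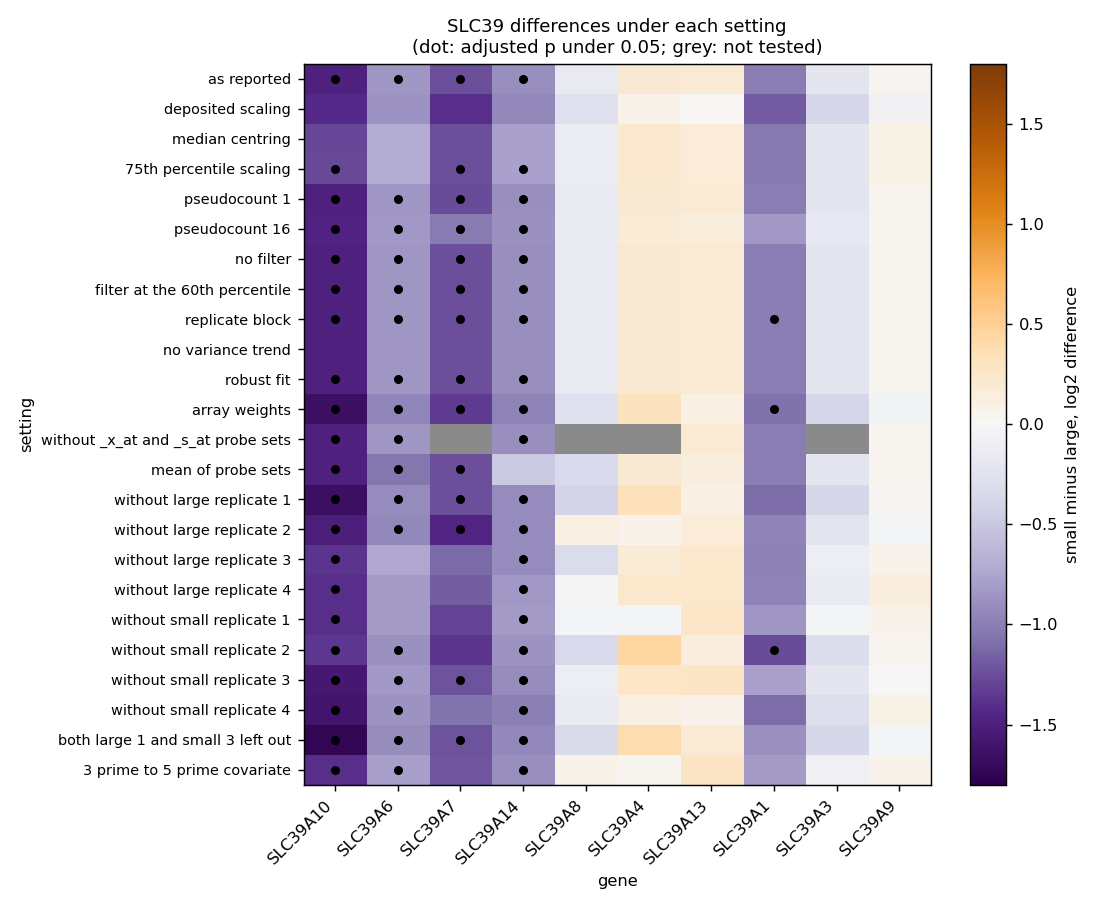
Difference between small and large cells on the log2 scale (colour) for each SLC39 gene (horizontal axis) under each setting (vertical axis); a dot marks an adjusted p under 0.05 and grey a gene not tested there. The SLC39A10 column stays dark in every row, from -1.74 to -1.28, and lacks a dot in the rows for deposited scaling, median centring and no variance trend.

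The signs of the 4 called genes and of SLC39A1 were negative in every setting in which they were tested. SLC39A10 and SLC39A14 kept their calls with each array left out in turn, SLC39A6 in 5 of 8 such fits and SLC39A7 in 3 of 8. SLC39A6 was not called without large array 3 or 4 or without small array 1, at -0.74, -0.82 and -0.82. With scaling to the 75th percentile it was at -0.71 and was also not called. Median centring, the deposited scaling and a fit lacking limma's variance trend each left none of the 4 called. Entering the 3 prime to 5 prime difference into the fit put SLC39A10 at -1.4, where it was called, as were SLC39A14 and SLC39A6, and SLC39A7 at -1.22, where it was not. Without both large array 1 and small array 3 all 4 were called, and SLC39A10 was at -1.74.

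Genes whose profile over the 8 arrays lay nearest to SLC39A10 were found by the root mean square distance between log2 profiles, each centred on its own mean. The nearest were LEMD3, for a protein of the inner nuclear membrane, at a distance of 0.117, and LAMC1, a laminin chain, at 0.119, beside a median of 0.901 over 14725 genes. VPS13A, KIDINS220 and IQGAP1 followed at 0.173, 0.181 and 0.189. Nearest to SLC39A14 were the kinetochore protein gene CENPF at 0.0818, the WNT modulator gene SFRP2 at 0.1 and BLTP1 at 0.101. ATP11A, NUP155 and DERL1 were nearest to SLC39A6, between 0.112 and 0.126. For SLC39A7 the nearest, B4GAT1, GALNT3 and CLCN4, lay farther off, between 0.282 and 0.300. The distance includes the difference between the groups, so the nearest genes were also lower in small cells, with differences from -1.53 to -0.73. The amounts were less alike for SLC39A7, at -1.24. There B4GAT1, GALNT3 and CLCN4 were at -0.87 ± 0.20, -0.99 ± 0.19 and -1.20 ± 0.38 (SE).

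The remaining family members were SLC39A2, SLC39A5, SLC39A11 and SLC39A12. SLC39A2 and SLC39A12 had no probe set above the filter. SLC39A11, a zinc transporter of the gufA subfamily, differed by -0.04 ± 0.26 (SE) and SLC39A5 by -0.08 ± 0.59 (SE), and neither was called.

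Other genes of zinc and metal handling came from 5 lists, the rest of the family included, with 31 of 41 genes tested. In the same fit 1 of the 31 was called, or 6 at an unadjusted p under 0.05. Beside this stand 293 called (1.99%) and 2431 at an unadjusted p under 0.05 among all 14726 genes. For the zinc exporters, 8 of 11 genes were tested and 0 were called (3 at an unadjusted p under 0.05), with a median of -0.29 and 7 of 8 below 0. Other settings did call exporters, all lower in small cells. These were SLC30A6 with the filter at the 60th percentile or with array weights, and SLC30A7 with the mean of probe sets. A fit with equal sort numbers as blocks (the replicate block) called 2, SLC30A1 and SLC30A6. SLC30A6, an exporter into the Golgi apparatus, ran from 6.93 to 7.27 in small and from 7.65 to 7.92 in large cells without overlap, and differed by -0.63 ± 0.16 (SE, limma adjusted p = 0.0611). Its 2 other tested probe sets gave -0.25 and 0.04, with groups that overlapped. SLC30A7, which fills Golgi vesicles, differed by -0.60 ± 0.18 (SE, limma adjusted p = 0.109), and its groups did not overlap either. A further SLC30A7 probe set, named after its values were seen, gave -0.94 ± 0.21 (SE), also without overlap, and was called lower in the fit over all probe sets (limma adjusted p = 0.0485). SLC30A1, the exporter of the plasma membrane, differed by -0.72 ± 0.29 (SE, limma adjusted p = 0.229). Its groups overlapped, with small arrays from 6.35 to 7.61 and large arrays from 7.30 to 8.47.

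**Figure D5:**
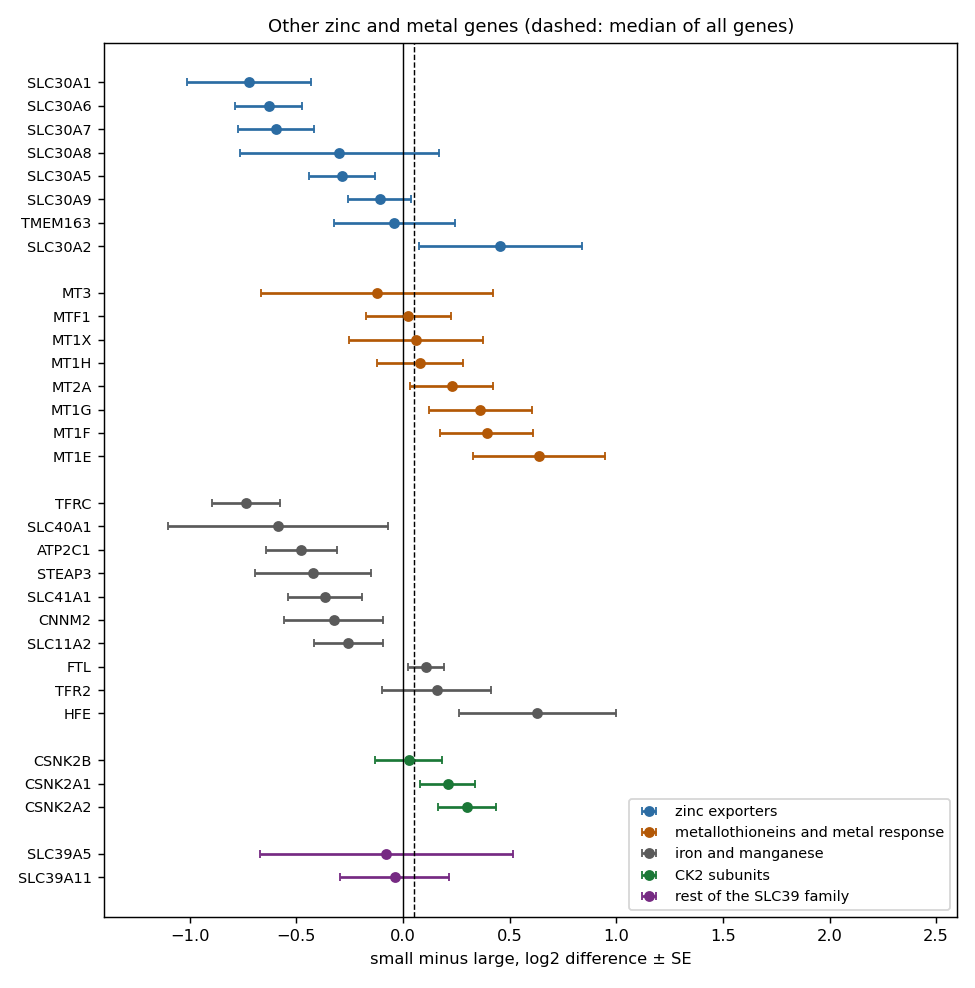
Difference between small and large cells ± SE on the log2 scale (horizontal axis) for the tested genes of 5 lists of zinc and metal handling, each list in its own colour, with the median of all genes dashed. Exporters lie mostly left of 0 and metallothioneins mostly right of it, and TFRC is the only one of the 31 genes called.

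Metallothioneins, which bind zinc and copper and are induced through MTF1, had 7 of 11 genes tested, and 6 of the 7 lay above 0. None of the 7 was called, and 0 had an unadjusted p under 0.05. MT1E had the largest difference, 0.64 ± 0.31 (SE, limma adjusted p = 0.329), with small arrays 1 and 3 at 8.98 and 9.39 and small arrays 2 and 4 at 7.99 and 7.92. The same small arrays were high for MT1G, at 9.68 and 9.74 beside 8.78 and 8.92, where the difference was 0.36 ± 0.24 (SE, limma adjusted p = 0.499). MT1F, MT1H and MT2A had that order too, but MT1X and MT3 did not. For MT1X, small arrays 1 to 4 were at 10.02, 9.55, 8.71 and 9.50. MT1F differed by 0.39 ± 0.22 (SE, limma adjusted p = 0.399). For 6 of the 7 genes the probe set ends in _x_at and may bind several metallothionein transcripts, so these genes are not independent readings. MTF1, named here for its role and not by its size, differed by 0.02 ± 0.20 (SE). Its further tested probe sets gave 0.30 ± 0.37 and 0.17 ± 0.30 (SE), with groups that overlapped.

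For iron and manganese, 10 of 11 genes were tested, 1 was called and 7 lay below 0. The transferrin receptor gene TFRC, which brings iron into the cell, was lower in small cells at 9.98, 10.29, 10.17 and 10.65 against 10.88, 10.89, 10.90 and 11.36, without overlap (-0.74 ± 0.16 SE, limma adjusted p = 0.0315). Its call held in 2 of 8 fits with 1 array left out, those without large array 1 or small array 4, and in the other six the difference lay between -0.78 and -0.62 (limma adjusted p from 0.0561 to 0.113). A further TFRC probe set gave -1.07 ± 0.22 (SE), also without overlap. The manganese and calcium pump of the Golgi apparatus, ATP2C1, differed by -0.48 ± 0.17 (SE, limma adjusted p = 0.17), SLC41A1, a magnesium transporter, by -0.37 ± 0.17 (SE) and HFE, the haemochromatosis gene, by 0.63 ± 0.37 (SE). HFE had 8 tested probe sets that disagreed, 4 above 0 and 4 below, from -0.64 to 0.77, and the 4 of ATP2C1 ran from -0.77 to 0.08. The CK2 subunits CSNK2A1, CSNK2A2 and CSNK2B, of the kinase that acts on ZIP7, differed by 0.21 ± 0.13, 0.30 ± 0.14 and 0.03 ± 0.15 (SE), and none was called. CSNK2A2 was higher in small cells without overlap (limma adjusted p = 0.288), as were 4.94% of all genes. Its other probe set gave 0.29, with groups that overlapped. The 4 tested probe sets of CSNK2A1 ran from -0.31 to 0.33. No test compared these lists with the SLC39 genes.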

How the data were processed

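Intensities of 8 one-colour arrays, 4 per group, were taken from the deposited value table, in which the authors gave a linear intensity per probe set. Per the series design text, scans were imported into Rosetta Resolver (version 7.1); background correction and scaling of the deposited intensities are not given in the sources used here. A pseudocount of 1.813, the 10th percentile, was added before log2, so differences of dim genes are understated, and the 62 control probe sets were left out. Arrays were quantile normalized, and probe sets with a mean above the 40th percentile (3.62) were tested. Each gene was represented by its tested probe set of highest mean over all arrays. GEO's platform annotation gave 41091 probe sets 1 symbol, 1801 several and 11721 none; RefSeq held the gene ID of 41037 of the former.

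The comparison of groups used R 4.3.3 and limma 3.58.1 (lmFit, eBayes with trend, two-sided, Benjamini-Hochberg over 14726 genes, threshold 0.05). The number of arrays limits the precision: the median SE over genes was 0.23. The submitters call the sorts biological repeats. Arrays of a group correlated between 0.9382 and 0.9662, so none was a copy of another in its group. Equal sort numbers were not treated as pairs. On simulated data of 14726 genes, 41 of 66 genes changed by 1.5, 24 of 67 changed by 1 and 6 of 67 changed by 0.58 (log2) were called, with 2 unchanged ones. The simulated noise was normal, with each gene's own SD within groups, and independent between genes. It held no effect of an array shared by many genes, so these rates need not hold for the real arrays.

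The members and lists were chosen with earlier results of these data known. Named were all members, from each other list the called genes and the 3 of smallest p, and the 5 genes nearest to SLC39A10 or 3 nearest to another called member. Beside leaving out each array, 13 alternatives were planned and 2 added after seeing the data.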

Additional observations from a re-analysis of the deposited data

Results flagged for a closer look

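Of 20 groups of 4 arrays checked, 2 for each of the 10 genes, 1 held an array set apart from the others of its group by Dixon's criterion, and chance alone sets apart about 1 in 20. SLC39A14 on large array 4 was at 9.77, while the other large arrays lay between 9.47 and 9.50. That array was the farthest of its group from the small arrays.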

How the results depend on the processing

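Leaving out 1 array moved the number of called genes between 62 (small array 1 absent) and 553 (large array 1 absent), and the number of SLC39 genes called from 2 (without large array 3 or 4 or small array 1) to 4. Under the deposited scaling, median centring and no variance trend, 0 genes were called by limma, hence 0 SLC39 genes and 0 of the other lists, with 494, 1575 and 2234 genes, and 3, 5 and 5 SLC39 genes, at an unadjusted p under 0.05. SLC39A10 was then at -1.43, -1.28 and -1.48. All genes had a median of -0.05 on the deposited scaling against 0.05 as reported, and 0.096 and 0.095 with median centring and 75th percentile scaling. Of the called genes 15% were higher in small cells as reported, beside 31.2% with 75th percentile scaling, 31.9% with the replicate block, 35.2% with array weights, 40.9% with both arrays left out and 3.23% to 35.4% with 1 array left out. The count was 753 with the replicate block, 824 with array weights, 190 without _x_at and _s_at probe sets (11713 genes tested), and, added after seeing the data, 776 with large array 1 and small array 3 both left out and 155 with the 3 prime to 5 prime covariate. SLC39 genes called were 5 with the replicate block or array weights, which added SLC39A1. For SLC39A10, the range with 1 array left out was -1.65 to -1.35. In the 5 other lists, 3 genes were called with the replicate block or array weights, 2 with the 60th percentile filter, the mean of probe sets or both arrays left out, 0 with 75th percentile scaling or the covariate, and 0 to 1 with 1 array left out. Deviations from the group means correlated by 0.114, 0.126, 0.234 and 0.0138 between same-numbered sorts, all above 0. Sorts of unequal number were not correlated, so these values have no reference beside them. The numbers were not taken as pairs because nothing in the labels says that equal numbers share a culture, which was not tested. With the replicate block the SE of SLC39A10 was 0.119, beside 0.206 as reported. With the replicate block, the genes called in these lists were TFRC and the exporters SLC30A1 and SLC30A6; array weights called TFRC, SLC30A6 and ATP2C1. Signs turned for uncalled genes: SLC39A9 to -0.057 on the deposited scaling, -0.044 with array weights and -0.036 with both arrays left out, and -0.036 to 0.138 with 1 array left out; SLC39A8 to 0.073 with the covariate and -0.40 to 0.103 with 1 array left out; SLC39A4 from -0.031 to 0.447 with 1 array left out. The cause of these changes was not tested.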
